A study of Homo sapiens with 6 samples.

Results

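The nuclear RNA polymerases I, II and III copy DNA into RNA, and the genes for their subunits, with the initiation factors of polymerase I and the polymerase of mitochondria, were compared between H1299 cells given PD 0332991 and cells given vehicle. The genes were taken by symbol from the platform annotation: every measured gene named POLR1, POLR2 or POLR3 with a letter, and POLRMT, RRN3, UBTF, TAF1A, TAF1B and TAF1C. This gave 37 genes of the 22375 measured with 1 gene symbol, each with 1 transcript cluster, the set of probes that reports a gene. Of these, 35 code for a subunit or factor and 2, POLR1HASP and POLR2J4, are transcribed pseudogenes in the RefSeq gene table. TAF1D, POLR2M, POLR2J2 and POLR2J3 share clusters with other genes and are not analysed here.

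H1299 is an established human non-small cell lung carcinoma line that lacks p53. One group of 3 arrays came from cells kept 14 days in DMSO alone, and the other group of 3 from cells kept as long with 500 nM PD 0332991 (palbociclib) in DMSO. The drug inhibits the kinases CDK4 and CDK6, which phosphorylate the retinoblastoma protein pRB, and the title of the study names reactivation of pRB as its aim. All arrays are of 1 parental line, and the labels do not say whether the arrays of a group came from separate cultures, so p-values measure the spread between these arrays, which may be technical.

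Polymerase I makes the large ribosomal RNA precursor in the nucleolus, polymerase II makes messenger RNA, and polymerase III makes transfer RNA, 5S ribosomal RNA and other short RNAs. Each has its own pair of large subunits that form the active centre, its own peripheral subunits, and a set of small subunits that are shared. As background, ribosomal and transfer RNA synthesis is known to rise in growing cells, and pRB is known to bind UBTF, a factor of polymerase I, and TFIIIB, a factor of polymerase III, and to restrain both enzymes.

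Most polymerase genes were lower under PD 0332991. Of the 37 genes 26 fell (70.3%), 1 rose and 10 were not called, where a gene was called at a limma p under 0.05 after Benjamini-Hochberg adjustment over all 22375 genes. Over all genes, 18.5% were called lower and 19.6% higher. Calls were more frequent in genes of high level, and 20 of the polymerase genes lay among the 20% of genes with the highest level. Of those 20 genes 14 fell and 1 rose, beside 38.7% called lower and 34.7% called higher over all 4475 genes of that range. The median change was -0.45 on the deposited log2 scale, beside 0.00 over all genes. The arrays of the groups did not overlap in 28 of the 37 genes (75.7%), beside 47.5% of all genes. Among the 4475 genes of highest level, 3664 did not overlap, a larger share than that of the polymerase genes. A fall of 1 or more was called in 6 of the 37 genes (16.2%), beside 5.43% of all genes. It was called in 661 of the 4475 genes of highest level, a share near that of the polymerase genes.

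Every polymerase gene was above the median of every array, with values between 5.67 and 13.53 and array medians between 4.85 and 4.98. MKI67, the proliferation marker, fell by 7.42, and RB1 had a change of 0.08 (limma adjusted p = 0.457). The keratin genes KRT8 and KRT18 stood near 14 in DMSO, while the epithelial genes CDH1, EPCAM and KRT19 stood at 4.51, 5.02 and 4.62, near the array medians. Of 12 measured markers of blood, endothelium and fibroblasts, 11 were below every array median. Of these, PECAM1 rose by 0.40 (limma adjusted p = 0.0453), from 3.53 to 3.93. Among the epithelial genes, KRT8 rose by 0.79. The log2 of the summed endothelial marker levels ran from 6.25 to 6.42 in DMSO and from 6.23 to 6.44 with the drug, that of blood markers from 6.37 to 6.56 and from 6.34 to 6.44, and that of fibroblast markers from 6.22 to 6.48 and from 6.30 to 6.53. Their part in the results was not tested. The values are relative to the other transcripts of an array, so less of a transcript per cell and a smaller share of cells that make it cannot be told apart, and a change in total RNA per cell was not measured.

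**Figure D1:**
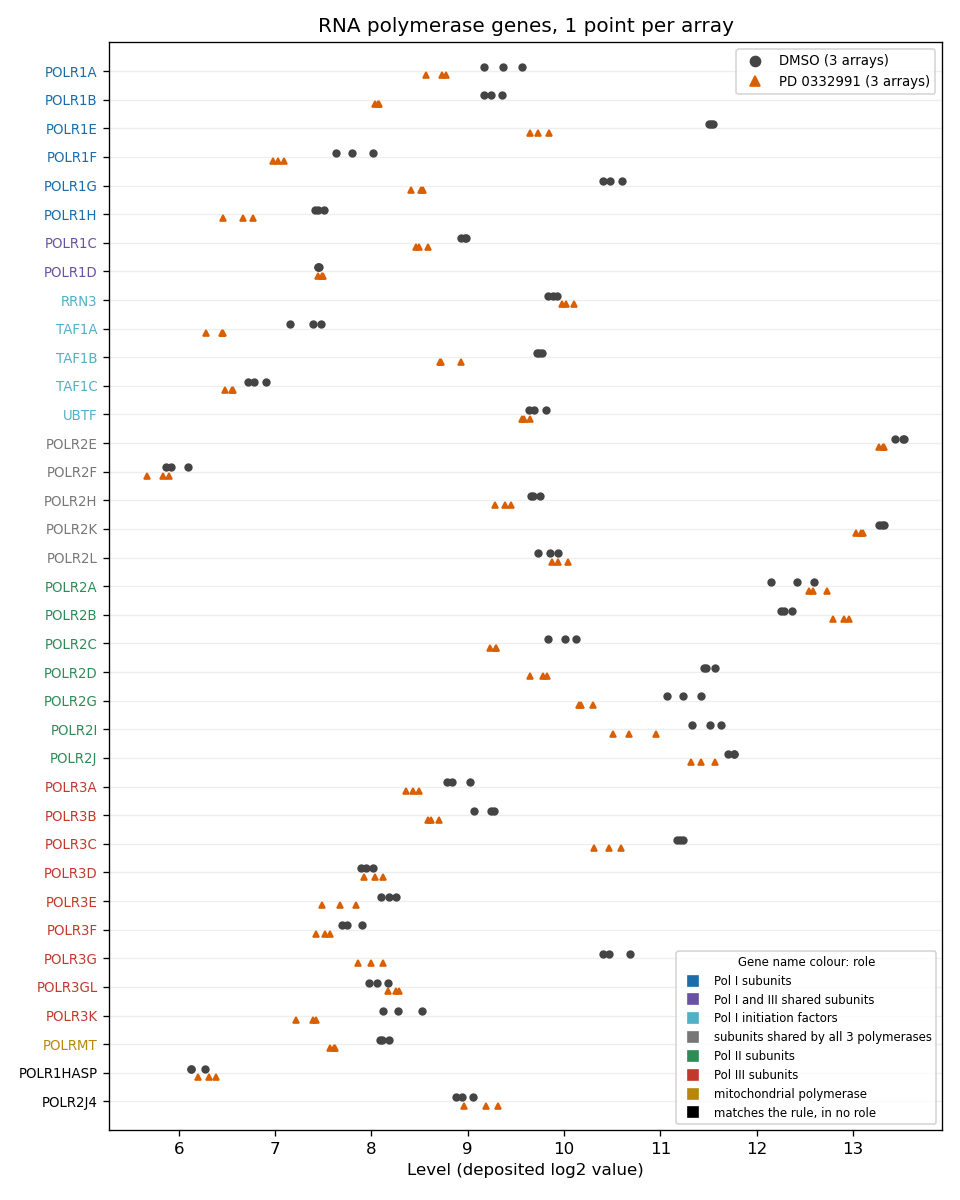
Level of each RNA polymerase gene on each array, on the deposited log2 scale along the horizontal axis, with 3 DMSO arrays as circles, 3 PD 0332991 arrays as triangles, and gene names coloured by role. The 2 sets of symbols stand apart in 28 of the 37 genes, among them all 6 polymerase I subunits; POLR3G moves from about 10.5 to about 8.0 and POLR2B is the gene whose triangles lie to the right and that was called.

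All 6 subunits that belong to polymerase I alone fell, with changes from -2.01 to -0.68 on the log2 scale and a median of -1.01. POLR1G fell furthest. Its DMSO arrays read 10.48, 10.60 and 10.40 and its PD 0332991 arrays 8.41, 8.54 and 8.52, so the groups lay far apart. The change was -2.01 ± 0.08 (SE, n = 3 per group; limma adjusted p = 5.83e-07). POLR1E and POLR1G form a dimer on the side of the enzyme. POLR1E stood at 11.51, 11.53 and 11.55 on the DMSO arrays against 9.65, 9.85 and 9.73 on the drug arrays, a change of -1.79 ± 0.07 (limma adjusted p = 7.58e-07). The members of this dimer had the deepest falls of the polymerase I subunits.

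Both subunits of the polymerase I active centre were lower. POLR1B read 9.24, 9.35 and 9.17 on the DMSO arrays against 8.08, 8.07 and 8.03 on the drug arrays, and fell by 1.20 ± 0.07. POLR1A, the largest subunit, read 9.57, 9.37 and 9.17 on the DMSO arrays against 8.56, 8.78 and 8.73 on the drug arrays, and fell by 0.68 ± 0.11 (limma adjusted p = 0.00151). The DMSO arrays of POLR1A were spread widely, yet the lowest of them lay above every drug array. POLR1F, whose product in the stalk contacts RRN3, fell by 0.78 ± 0.10, and POLR1H, whose product takes part in cleavage of the nascent RNA, fell by 0.82 ± 0.09.

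The initiation factors of polymerase I did not fall as a whole. Of the 5 measured, 3 fell and 2 were not called. TAF1A, TAF1B and TAF1C encode parts of the promoter selectivity factor that holds TBP on the ribosomal DNA promoter. TAF1B stood at 9.77, 9.74 and 9.71 on the DMSO arrays against 8.71, 8.93 and 8.72 on the drug arrays, and fell by 0.95 ± 0.08 (limma adjusted p = 2.91e-05). TAF1A fell by 0.95 ± 0.10, and TAF1C fell by 0.27 ± 0.08 (limma adjusted p = 0.0223). The TAF1C call was lost in 6 of 16 alternative analyses, among them without DMSO replicate 1 (0.0643), without DMSO replicate 2 (0.0604) and without PD 0332991 replicate 3 (0.0842).

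The remaining factors, RRN3 and UBTF, were not called. RRN3, which makes polymerase I competent to start, read 9.83, 9.93 and 9.89 on the DMSO arrays against 10.10, 10.02 and 9.98 on the drug arrays. Its drug arrays all lay above its DMSO arrays, but the change of 0.15 ± 0.07 was not called (limma adjusted p = 0.126, interval from -0.01 to 0.31). RRN3 has transcribed pseudogenes of near-identical sequence, and probes may not separate them: RRN3P1 rose by 0.20 (limma adjusted p = 0.0431), and RRN3P2 and RRN3P3 had uncalled changes of 0.13 and 0.08. UBTF, which bends and opens the ribosomal DNA, read 9.81, 9.63 and 9.69 on the DMSO arrays against 9.58, 9.65 and 9.56 on the drug arrays. Its groups overlapped, with a change of -0.11 (limma adjusted p = 0.301, interval from -0.29 to 0.06).

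The 7 measured subunits of polymerase II alone went both ways: 5 fell, 1 rose and 1 was not called. The exceptions were the subunits of the active centre. POLR2B, one of these large subunits, was the single polymerase gene that rose. It read 12.29, 12.37 and 12.25 on the DMSO arrays against 12.96, 12.91 and 12.79 on the drug arrays, a change of 0.58 ± 0.07 (limma adjusted p = 0.000345). POLR2A, the largest subunit, carries the heptad repeat tail that is phosphorylated during transcription. It read 12.59, 12.42 and 12.15 on the DMSO arrays against 12.59, 12.73 and 12.54 on the drug arrays, with overlapping groups and a change of 0.23 ± 0.12 that was not called (limma adjusted p = 0.180). With quantile normalization POLR2A was called, at 0.30 (limma adjusted p = 0.0472).

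The peripheral and assembly subunits of polymerase II fell. POLR2D and POLR2G form the stalk of the enzyme, which can leave the core in yeast. POLR2D read 11.57, 11.45 and 11.47 on the DMSO arrays against 9.78, 9.82 and 9.65 on the drug arrays, and fell by 1.74 ± 0.08 (limma adjusted p = 9.58e-07). POLR2G read 11.24, 11.07 and 11.43 on the DMSO arrays against 10.30, 10.18 and 10.15 on the drug arrays, and fell by 1.03 ± 0.10. These stalk genes had the deepest falls of the polymerase II subunits. POLR2C and POLR2J encode the dimer on which the enzyme is built: POLR2C fell by 0.72 ± 0.09, and POLR2J fell by 0.31 ± 0.08 (limma adjusted p = 0.0163). POLR2J has close copies, among them the pseudogene POLR2J4 with an uncalled change of 0.20, so its probes may not report it alone. Its call was lost in 3 of 16 alternatives, among them without PD 0332991 replicate 1 (0.0577) and without PD 0332991 replicate 3 (0.0548). POLR2I, which in yeast acts in start site choice and proofreading, fell by 0.78 ± 0.13.

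Among the 9 measured subunits of polymerase III alone, 7 fell and 2 were not called, with a median of -0.51. The POLR3G gene stood out by size. POLR3G and POLR3GL encode alternative versions of the same subunit, part of a trimer that opens the promoter with POLR3C and POLR3F. The POLR3G version is known as the form of stem cells and of many transformed cells, and the POLR3GL version is widely expressed. POLR3G read 10.46, 10.41 and 10.68 on the DMSO arrays, and its drug arrays lay between 7.86 and 8.12. It fell by 2.53 ± 0.10 (limma adjusted p = 6.51e-07), the deepest change among the polymerase genes, and 289 of the 22375 genes had a change of larger size. POLR3GL read 8.05, 7.97 and 8.18 on the DMSO arrays against 8.29, 8.26 and 8.17 on the drug arrays. The POLR3GL groups overlapped, and the change of 0.17 ± 0.08 was not called (limma adjusted p = 0.140), though it was with array weights, at 0.22 (limma adjusted p = 0.0271).

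The other polymerase III subunits moved less. In the trimer, POLR3C fell by 0.75 ± 0.09 and POLR3F fell by 0.28 ± 0.08 (limma adjusted p = 0.0281). The POLR3F call was lost in 6 of 16 alternatives, among them without DMSO replicate 2 (0.113), without PD 0332991 replicate 1 (0.0635) and without PD 0332991 replicate 3 (0.106). POLR3K, whose product serves termination and RNA cleavage, read 8.53, 8.12 and 8.27 on the DMSO arrays against 7.22, 7.40 and 7.42 on the drug arrays, and fell by 0.96 ± 0.11. Of the active centre genes, POLR3A read 9.02, 8.83 and 8.78 against 8.36, 8.50 and 8.43 and fell by 0.45 ± 0.08, and POLR3B fell by 0.56 ± 0.08. POLR3D and POLR3E encode a dimer of the enzyme's flank. POLR3E fell by 0.51 ± 0.10, and POLR3D had overlapping groups and an uncalled change of 0.08 (limma adjusted p = 0.540); the difference between these genes was not tested.

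**Figure D2:**
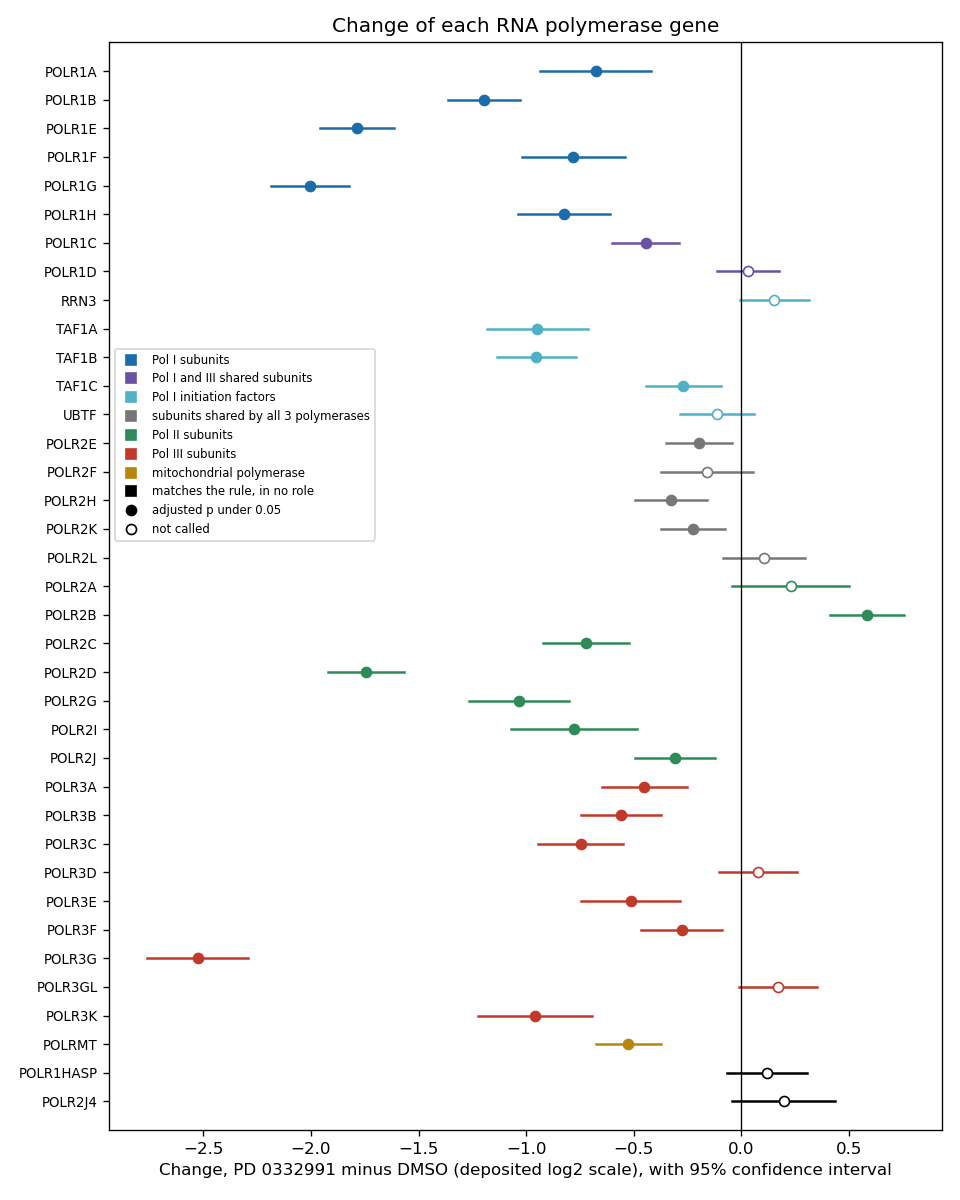
Change of each polymerase gene, PD 0332991 minus DMSO, on the deposited log2 scale along the horizontal axis, with limma's 95% confidence interval as a line and colour by role; filled points were called at an adjusted p under 0.05. All 6 polymerase I subunits lie left of 0, the 5 subunits common to all 3 enzymes lie between -0.33 and 0.11, POLR2B is the filled point right of 0, and POLR3G at -2.53 lies farthest left.

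The 5 small subunits common to the 3 nuclear enzymes had small changes, which ran from -0.33 to 0.11 with a median of -0.20. POLR2H fell by 0.33 ± 0.07 (limma adjusted p = 0.00738), POLR2K fell by 0.22 ± 0.06 (0.0231) and POLR2E fell by 0.20 ± 0.07 (0.0478). POLR2E read 13.52, 13.43 and 13.53 on the DMSO arrays against 13.27, 13.32 and 13.31 on the drug arrays. Its call was lost in 11 of 16 alternatives and that of POLR2K in 10, including without any single array for POLR2E (0.0723 to 0.138) and without any single array except PD 0332991 replicate 2 for POLR2K (0.0535 to 0.0879). POLR2F and POLR2L had overlapping groups and uncalled changes of -0.16 and 0.11. POLR2F had the lowest level of the 5, with a mean of 5.96 in DMSO. Of the subunits shared by polymerases I and III, which anchor assembly of both, POLR1C read 8.97, 8.98 and 8.93 against 8.49, 8.59 and 8.46 and fell by 0.45 ± 0.07. Its partner POLR1D read 7.45, 7.44 and 7.45 against 7.50, 7.44 and 7.49, with overlapping groups and a change of 0.03 (limma adjusted p = 0.787, interval from -0.11 to 0.17).

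POLRMT, the separate enzyme that transcribes the mitochondrial genome, read 8.09, 8.11 and 8.18 on the DMSO arrays against 7.62, 7.61 and 7.57 on the drug arrays. It fell by 0.53 ± 0.07 (limma adjusted p = 0.000291), and its groups did not overlap. The pseudogenes POLR1HASP and POLR2J4 had uncalled changes of 0.12 and 0.20 with overlapping groups. POLR2J4 was called with quantile normalization (limma adjusted p = 0.0289), with array weights (0.0377) and without PD 0332991 replicate 1 (0.0430).

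The polymerases were contrasted directly by subtracting the log2 values of corresponding subunits within each array, which compares changes and not levels. For the largest subunits, the change of POLR1A less that of POLR2A was -0.91 ± 0.07 (SE, n = 3 per group), and the change of POLR3A less that of POLR2A was -0.68 ± 0.08. POLR1A and POLR3A were closer, with a difference of -0.23 ± 0.06. The other large subunits kept this order: the change of POLR1B less that of POLR2B was -1.78 ± 0.04, POLR3B less POLR2B gave -1.14 ± 0.09, and POLR1B less POLR3B gave -0.64 ± 0.06. For the alternative subunits, POLR3G less POLR3GL gave -2.70 ± 0.06. The groups did not overlap in any of the 7 differences. Of single genes, 47.5% did not overlap, and 3664 of the 4475 genes of highest level. The share over other gene pairs was not measured. Within each set of corresponding large subunits any difference follows from the others, so the 7 differences are not separate observations. The exact two-sided permutation test gave p = 0.1 for each, and 0.1 after adjustment over the 7 pairs, which is the smallest value that 3 against 3 arrays allow, so none of these differences could pass 0.05.

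**Figure D3:**
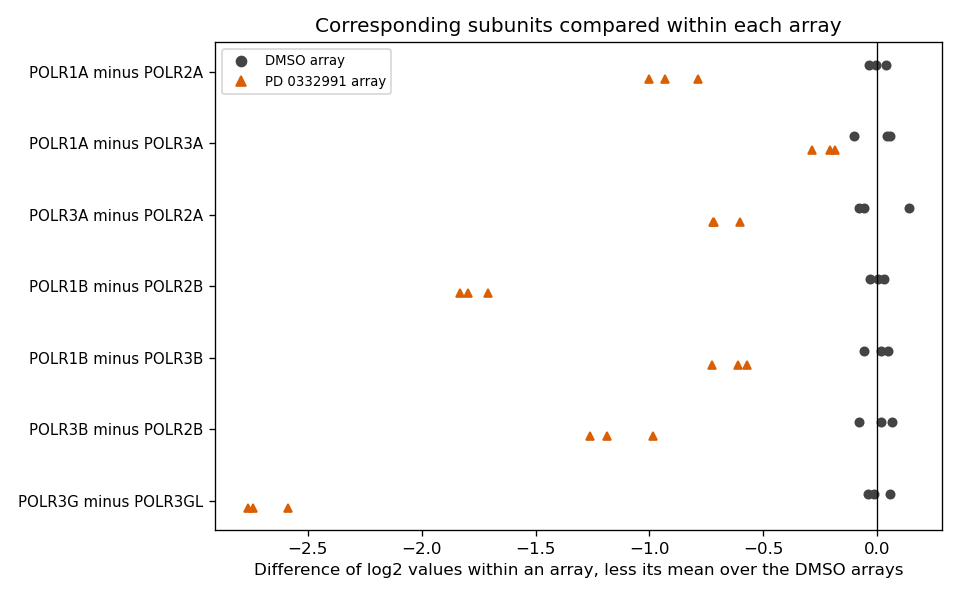
Difference between the log2 values of corresponding subunits on each array, less its mean over the DMSO arrays, along the horizontal axis; circles are 3 DMSO arrays and triangles 3 PD 0332991 arrays. In all 7 pairs the triangles lie left of the circles, with a mean shift of -0.23 for POLR1A minus POLR3A and of -2.70 for POLR3G minus POLR3GL. Each pair has the gene with the lower change first, so the common side follows from the order of subtraction.

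Promoter sequence was examined as a feature that the choice of genes did not use. RefSeq promoter windows of the assembly GRCh38.p14, from 250 bases before to 50 bases after the first listed start, were matched by gene ID for 28 of the 37 genes. No window was matched for POLR1E, POLR1HASP, POLR2G, POLR2I, POLR2J, POLR2J4, POLR2K, POLR3D and POLR3G, so their letters were not examined. Their changes ran from -2.53 for POLR3G, the deepest fall, to 0.20 for POLR2J4. The E-box CACGTG, the site of MYC and other factors of its class, was present in 4 of the 28 windows (14.3%), beside 8.65% of 14630 windows of tested genes. These were the windows of POLR1G, POLR3A, POLR3C and POLR3E, all genes that fell, as did 20 of the 28 genes with a window. The E2F-like letters TTTNNCGC, on either strand, were present in 4 of 28 (14.3%), in POLR1F, POLR2A, POLR3C and POLR3E, beside 8.65%. No letters of either motif shared bases with the other in these windows. A match is a description of the letters and does not show that a factor binds there. MYC itself fell by 1.59 ± 0.09 (limma adjusted p = 4.70e-06). A link between this fall and the polymerase genes was not tested, and neither were the motif shares.

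The next windows are printed because they hold the E-box within 40 bases of the start, together with that of POLR2B, the gene that rose, which holds neither motif. Each runs from 100 bases before the start to 20 after it, 5′ to 3′ on the strand of the gene, and capitals mark CACGTG.
POLR1G, chr19:45406544-45406663, plus strand: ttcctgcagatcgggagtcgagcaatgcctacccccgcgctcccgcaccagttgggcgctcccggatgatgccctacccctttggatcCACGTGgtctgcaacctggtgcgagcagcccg
POLR3A, chr10:78029496-78029615, minus strand: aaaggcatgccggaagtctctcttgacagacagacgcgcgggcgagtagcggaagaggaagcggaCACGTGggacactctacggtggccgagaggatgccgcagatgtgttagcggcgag
POLR3E, chr16:22297309-22297428, plus strand: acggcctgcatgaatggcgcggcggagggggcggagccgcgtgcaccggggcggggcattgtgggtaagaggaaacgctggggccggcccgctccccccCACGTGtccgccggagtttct
POLR2B, chr4:56978796-56978915, plus strand: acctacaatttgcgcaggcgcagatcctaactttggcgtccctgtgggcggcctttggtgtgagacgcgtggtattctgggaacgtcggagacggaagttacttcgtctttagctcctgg
The E-box begins 12, 35 and 1 bases before the start in POLR1G, POLR3A and POLR3E. Their changes were -2.01, -0.45 and -0.51, and that of POLR3C, whose E-box lies farther from the start, was -0.75. The polymerase genes that fell had changes from -2.53 to -0.20. POLR2D and POLR1B, with changes of -1.74 and -1.20, had neither motif in their windows. Whether the E-box goes with the size of a fall was not tested.

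Partner genes of the polymerases were taken from 7 lists. The same fit gave their calls, and no list was tested as a whole. For polymerase III, 8 of 16 factor genes fell and 1 rose, with a median of -0.21 beside 0.00 over all genes. GTF3A, for the factor that places the enzyme on 5S ribosomal RNA genes, fell by 2.20 ± 0.11 (SE, n = 3 per group). SNAPC1, of the complex for small nuclear RNA genes, fell by 1.73 ± 0.10, and GTF3C6, a subunit of TFIIIC, fell by 1.44 ± 0.09. BRF1 and BRF2, the alternative TFIIIB subunits, had uncalled changes of 0.16 (limma adjusted p = 0.112) and 0.06 (0.629), and BRF1 was called with array weights (0.0239). MAF1, a repressor of polymerase III, fell by 0.65 ± 0.07 (limma adjusted p = 0.000105). TBP, used by all 3 nuclear enzymes, fell by 0.37 ± 0.07 (0.00279).

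Of 13 measured regulators of polymerase I outside its core factors, 8 fell and 3 rose, with a median of -0.75. Those that rose were BAZ2A, KDM2A and SMARCA5, with changes of 1.28, 0.85 and 0.40. The list was not divided into activators and repressors, so its median gives no direction for polymerase I activity. The helicase gene DDX21 fell by 1.98 ± 0.08, and NOLC1 and TCOF1, whose products are nucleolar partners of polymerase I, fell by 1.76 ± 0.08 and fell by 1.64 ± 0.08. Of 11 genes for assembly and nuclear import of the polymerases, 9 fell and 0 rose. The related helicases RUVBL2 and RUVBL1, parts of a cochaperone complex, fell by 2.40 ± 0.11 and fell by 1.98 ± 0.08, and the import GTPase gene GPN3 fell by 1.24 ± 0.07. In the mitochondrial list 7 of 10 measured genes fell and 2 rose, with a median of -1.07. TFAM, which packages mitochondrial DNA and starts its transcription, read a mean of 11.82 in DMSO and 10.09 under the drug and fell by 1.73 ± 0.10 (limma adjusted p = 4.33e-06). SLIRP, which stabilises mitochondrial messenger RNA, fell by 1.72 ± 0.08, and MRPL12, a ribosomal protein that binds POLRMT, fell by 1.52 ± 0.12.

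The partners of polymerase II went both ways. Of 31 measured general transcription factor genes 17 fell and 3 rose, with a median of -0.33. TAF5 and TAF4B, for subunits of TFIID, fell by 1.82 ± 0.11 and fell by 1.64 ± 0.10, and TAF9B, for another, fell from a mean of 12.68 to 11.18. Of 30 measured genes of Mediator, the complex that relays activators to polymerase II, 10 fell and 9 rose, with a median of -0.04. MED29, MED28 and MED23 rose by 1.14 ± 0.08, 1.13 ± 0.09 and 1.11 ± 0.07. Of 21 measured pausing and elongation genes 6 fell and 10 rose, with a median of 0.22, the single list with a median above 0. The list named 26 genes. No gene of the pausing complex NELF was among those measured, nor was CDK9, for the elongation kinase. The median does not cover them. HEXIM1, an inhibitor of the elongation kinase, rose by 1.92 ± 0.13, and the elongation factor gene SUPT5H rose by 1.23 ± 0.11. SSRP1, part of a histone chaperone that also serves DNA replication, fell by 2.12 ± 0.07. Beside the counts of the 7 lists stand 18.5% of all genes called lower and 19.6% called higher. Among the 20% of genes with the highest level these shares were 38.7% and 34.7%. The lists were not matched for level.

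**Figure D4:**
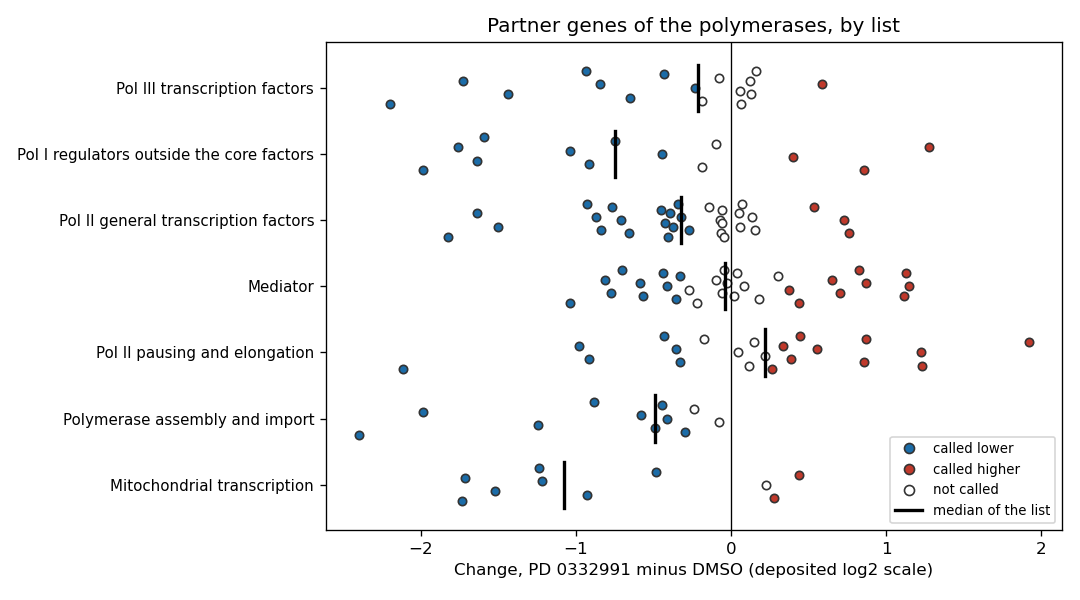
Change of each measured gene of the 7 partner lists, PD 0332991 minus DMSO, on the deposited log2 scale along the horizontal axis; blue points were called lower, red higher, white not called, bars mark list medians, and vertical scatter within a list has no meaning. Medians run from -1.07 for mitochondrial transcription to 0.22 for polymerase II pausing and elongation.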

How the data were processed

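Expression was measured in total RNA of H1299 cells on 6 Affymetrix arrays. The authors deposited 1 table of log2 values, made in Affymetrix Expression Console per the submitters' processing notes; the version, algorithm, normalization and genome build were not given in the sources used here. Base 2 was inferred from the range of the values, up to 19.89. Differences between groups are therefore given on the deposited scale. The table holds 65535 transcript clusters, which may not be all of the array. Of these 22685 carried 1 gene symbol, 1385 several and 41465 none in the platform annotation; symbols were checked by gene ID against RefSeq (GRCh38.p14). The cluster with the highest mean stood for a gene. No genes were filtered.

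PD 0332991 and DMSO arrays were compared in R 4.3.3 with limma 3.58.1 (lmFit, eBayes, two-sided, 4 residual degrees of freedom, Benjamini-Hochberg over 22375 genes, threshold 0.05), without a replicate term. Precision is limited by 3 arrays per group, with a median standard error over genes of 0.0875. Corresponding subunits were compared by exact permutation over arrays. On simulated data for 22375 genes, with 50 changed at each size, the fit recovered 52% of genes changed by 0.5 and 98% of those changed by 1. The simulation gave 181 calls, beside 8529 in the data. Its adjustment was therefore stricter, and these shares do not give the sensitivity of the reported fit. Genes, roles, lists and alternatives were chosen with earlier results of these data known. Named were every polymerase gene, up to 3 called genes of largest change per list, and RB1, MYC, MKI67, BRF1, BRF2, MAF1, TBP and TFAM. The RRN3 pseudogenes, the marker genes and the polymerase I regulators that rose were added for comparison. The 16 alternatives were 3 other scalings, a filter on dim genes, the mean of probe sets, all clusters, a trended robust fit, array weights, a replicate block, leaving out each of 6 arrays, and leaving out DMSO replicate 1 with PD 0332991 replicate 2.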

Additional observations from a re-analysis of the deposited data

How the results depend on the processing

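Of the 27 called polymerase genes, 22 kept direction and call in all 16 alternatives, and TAF1C, POLR2E, POLR2K, POLR2J and POLR3F lost the call in at least 1. Of the 10 uncalled genes POLR2F, POLR2A, POLR3GL and POLR2J4 were called in at least 1, POLR2F with quantile normalization (limma adjusted p = 0.0489) and cyclic loess (0.0494). The count of polymerase genes called lower ran from 21 to 27, and without single arrays from 21 to 25. The count called higher was 3 with quantile normalization, where POLR2A and POLR2J4 joined POLR2B, and 3 with array weights, where POLR3GL and POLR2J4 joined it; without single arrays it ran from 1 to 2. With the replicate number as a block (replicate block), 24 polymerase genes were called lower and 7708 genes in all. The labels do not say that the numbers pair arrays, and deviations of same-numbered arrays correlated at -0.33, -0.15 and 0.10. DMSO replicate 1 and PD 0332991 replicate 2 deviated together (0.41), and without both arrays 22 polymerase genes were called lower and 1 higher. With all 65535 clusters tested, the adjustment covers more features, and 21 were called lower. The values carry no detection flags, so brightness over background was not measured.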
